A study of Mus musculus with 16 samples.

Results

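The genes described here are 10 components of antigen presentation by major histocompatibility complex (MHC) class I in cultured mouse mast cells. They were the rows of the deposited count, RPM and RPKM tables that carry the symbols H2-K1, H2-D1, B2m, Tap1, Tap2, Tapbp, Psmb8, Psmb9, Psmb10 and Nlrc5, and these 10 genes were found among 55487. Polyadenylated RNA was sequenced from bone marrow-derived cells of C57BL/6 background in 4 groups of 4 libraries: Nbeal2-/- with IL-33, Nbeal2-/- untreated, wild type (WT) with IL-33 and WT untreated. The series title names mast cells, while the sample labels spell the same abbreviation out as mononuclear cells. Nbeal2-/- mice lack a BEACH-domain protein that platelets require for their alpha granules. IL-33 is an alarmin that mast cells bind through the receptor encoded by Il1rl1. The sources used here do not give the dose and time of IL-33, the deleted part of Nbeal2 or the number of mice, so p-values measure the spread between these libraries, which may be technical.

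MHC class I molecules display peptides from the inside of a cell to CD8+ T cells. The proteasome cuts proteins into peptides, the transporter made of Tap1 and Tap2 carries the peptides into the endoplasmic reticulum, and tapasin, the product of Tapbp, holds an empty class I molecule at that transporter until a peptide binds. Each class I molecule pairs a heavy chain, such as those encoded by H2-K1 and H2-D1, with the light chain beta-2 microglobulin, encoded by B2m. Psmb8, Psmb9 and Psmb10 encode the inducible catalytic subunits of the immunoproteasome, which take the places of the constitutive subunits encoded by Psmb5, Psmb6 and Psmb7. Nlrc5 encodes a transactivator of class I genes, and interferon is a well-known inducer of the whole set.

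Library totals ran from 36405209 to 57694499 counts. Levels are counts scaled to library size with TMM factors (CPM), and tests are edgeR quasi-likelihood tests with Benjamini-Hochberg adjustment over 15470 genes, called at an adjusted p under 0.05. Nbeal2 averaged 70.7 ± 5.38 CPM in Nbeal2-/- with IL-33, 92.6 ± 8.12 CPM in Nbeal2-/- untreated, 236 ± 35.2 CPM in WT with IL-33 and 377 ± 103 CPM in WT untreated (SD, n = 4 each), and the genotypes did not overlap. The 8 mast cell markers, among them Kit, Fcer1a and Cpa3, summed to between 34691 and 42721 CPM in the Nbeal2-/- libraries and between 47984 and 50352 CPM in the WT libraries, and none of the 8 was without counts in any group. Of 8 T and NK cell markers, Cd3e, Cd3g, Cd8a and Klrb1c had 0 counts in every library. Ncr1, of the same list, averaged 9.46 CPM in Nbeal2-/- and 9.15 CPM in WT with IL-33, and 0.237 and 0.172 CPM untreated. Cd4, Cd8b1 and Trac averaged at most 0.173 CPM in any group. The genes listed for basophils summed to between 640 and 1050 CPM. The macrophage gene Adgre1 had group means from 8.42 to 25.2 CPM. The library numbered 1 was the highest of its 4 for 40.9% of all genes in Nbeal2-/- untreated and 34.2% in WT untreated, against 28.5% in Nbeal2-/- with IL-33 and 27.8% in WT with IL-33. Without the libraries numbered 1 the calls of the 10 genes were the same, except that Psmb10 gained a call between the treated genotypes and Nlrc5 lost one between the untreated genotypes (adjusted p = 0.031 and 0.11, edgeR).

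Of the 10 genes, 7 lie on chromosome 17 of GRCm38, in or near the MHC. By the GENCODE M21 annotation Psmb9 (chr17:34181987-34187764, minus strand), Tap1 (chr17:34187553-34197225, plus strand), Psmb8 (chr17:34197721-34201454, plus strand) and Tap2 (chr17:34203527-34216321, plus strand) follow each other within 34335 bases. Tapbp (chr17:33915899-33929292, plus strand), H2-K1 (chr17:33996017-34000347, minus strand) and H2-D1 (chr17:35262730-35267499, plus strand) flank them. B2m lies at chr2:122147686-122153083, Psmb10 at chr8:105935735-105938444 and Nlrc5 at chr8:94434356-94527272. Psmb9 and Tap1 are transcribed away from each other, and their annotated exons overlap on opposite strands by 212 bases. The sources used here do not give the strand setting of the counting, so reads from such overlaps cannot be assigned with certainty. Annotated genes on the opposite strand also cover 24.9% of the exon bases of Tapbp (Gm19412), 14.1% of those of Tap2 (Gm15821) and 14.7% of those of Psmb8 (Gm20496). Those partners were low, with group means of at most 2.66 CPM for Gm19412, 0.208 CPM for Gm15821 and 0.560 CPM for Gm20496. A low partner does not show how many reads of an overlap were left uncounted. On the same strand, Zbtb22 covers 4.1% of the exon bases of Tapbp, with group means from 37.7 to 41.9 CPM. The heavy chain genes belong to a family of near-identical copies: 12.8% of all 50-base stretches of the H2-D1 transcripts and 9.63% of those of H2-K1 also occur in transcripts of other genes. That share was 0 for B2m, Psmb9, Psmb10 and Nlrc5 and at most 2.87% for the others, so values of the heavy chains are the least certain.

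Levels of different genes were compared per length, with the deposited RPKM. In Nbeal2-/- with IL-33 the order was B2m at 632 ± 37.4 RPKM, H2-D1 at 385 ± 13.7, H2-K1 at 352 ± 13.3, Tapbp at 60.5 ± 2.12, Tap2 at 35.5 ± 0.711, Psmb8 at 25.8 ± 0.728, Psmb10 at 14.5 ± 1.05, Tap1 at 9.77 ± 0.324, Psmb9 at 2.16 ± 0.0899 and Nlrc5 at 0.00404 ± 0.00367 (SD, n = 4). The order in WT with IL-33 was the same, with B2m at 625 ± 15.4 RPKM and Nlrc5 at 0.00868 ± 0.00385. In both untreated groups Tapbp stood below Tap2 and Psmb8, at 23.1 ± 0.646 RPKM against 59.7 ± 1.64 and 33.2 ± 1.53 in Nbeal2-/- untreated, and at 29.5 ± 1.30 RPKM against 76.2 ± 6.01 and 37.3 ± 4.59 in WT untreated. In each of the 4 groups the ranges of neighbours in the order did not overlap over the 4 libraries. The transporter subunits were unequal per length in every group, with Tap1 at 9.77, 11, 10.2 and 12.7 RPKM and Tap2 at 35.5, 59.7, 34.4 and 76.2 RPKM in Nbeal2-/- with IL-33, Nbeal2-/- untreated, WT with IL-33 and WT untreated, in that order.

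**Figure D1:**
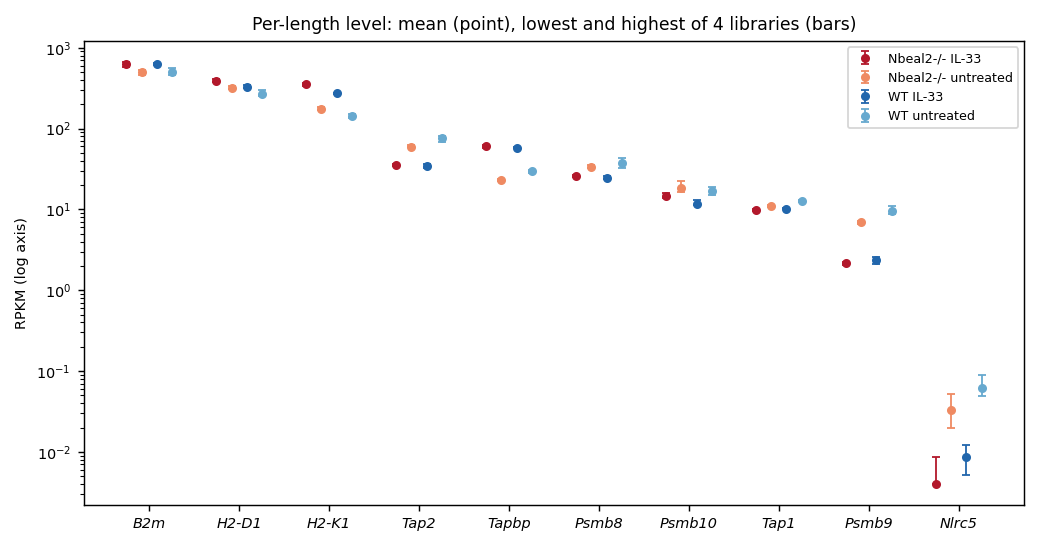
Deposited RPKM on a log axis for the 10 genes in the 4 groups, as the mean of 4 libraries with bars to the lowest and highest library; the lower bar of Nlrc5 in Nbeal2-/- with IL-33 is left out because 1 library was at 0. B2m is highest at 495 to 632 RPKM, Nlrc5 lowest, and Tapbp moves past Tap2 and Psmb8 with IL-33.

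With IL-33 the class I genes moved in both directions. H2-K1, H2-D1, B2m and Tapbp rose in both genotypes, while Tap2, Psmb8 and Psmb9 fell in both. Tap1 and Psmb10 fell in WT and were not called in Nbeal2-/-. Nlrc5 was near 0 with IL-33 in both genotypes and is counted apart, because it passed the filter on low counts only through its untreated libraries. Of the other 9 genes, 4 rose, 3 fell and 2 were not called in Nbeal2-/-, where 55.1% of all genes tested were called, 27.2% higher and 27.9% lower. In WT 4 rose and 5 fell, where 57.6% were called, 28.9% higher and 28.6% lower. Without TMM factors 33.5% of all calls in Nbeal2-/- and 38% in WT were higher, against 49.4% and 50.3% with them. With 55.1% and 57.6% of all genes called, a call alone says little about a gene, so the sizes and directions are given gene by gene. Groups of libraries did not overlap for 50.7% of all genes in Nbeal2-/- (25% higher, 25.7% lower) and for 52.3% in WT (26.6% higher, 25.8% lower), and the same holds below for each called gene. A call with a log2 change past 1 either way was made for H2-K1, Tapbp and Psmb9 in Nbeal2-/-, where 12.5% of all genes had one, and for these and Tap2 in WT, where 13.1% had one, beside Nlrc5 in both. Fewer cells of a type and less RNA per cell cannot be told apart in these bulk libraries.

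**Figure D2:**
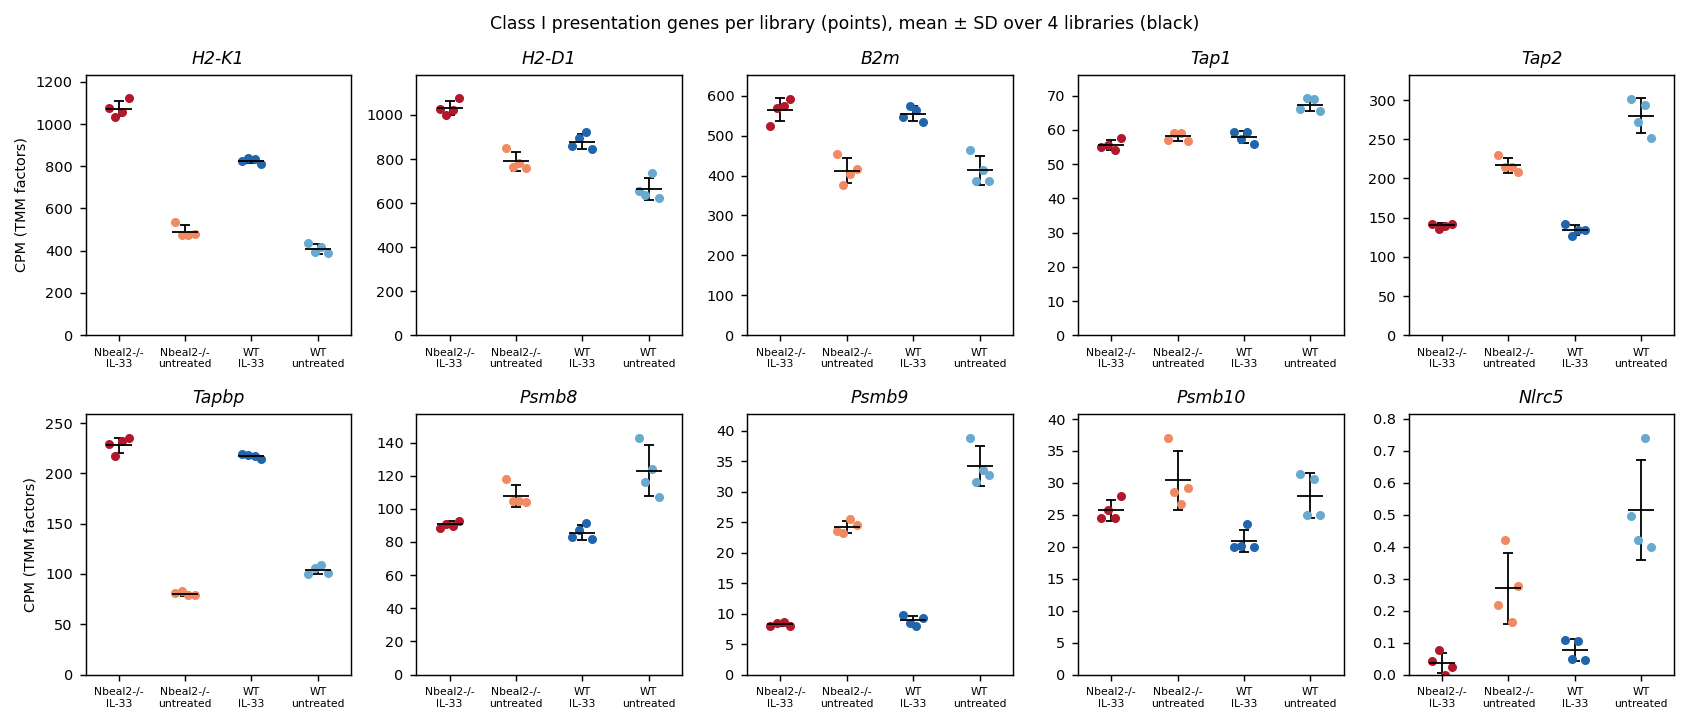
CPM of each gene in each library (points), with mean and SD over 4 libraries in black, for Nbeal2-/- with IL-33, Nbeal2-/- untreated, WT with IL-33 and WT untreated; each axis starts at 0. H2-K1 and Tapbp are at least 2.02-fold higher in mean with IL-33, while Psmb9 lies at 7.92 to 9.70 CPM with IL-33 and at 23.3 to 38.9 CPM without it.

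H2-K1, which encodes a classical heavy chain, had 1078, 1035, 1058 and 1122 CPM in Nbeal2-/- with IL-33, against 536, 476, 476 and 478 CPM in Nbeal2-/- untreated. In WT it had 825, 837, 833 and 810 CPM with IL-33, against 438, 393, 416 and 387 CPM untreated. The treated and untreated libraries did not overlap in either genotype. The log2 fold change was 1.13 ± 0.05 in Nbeal2-/- (SE, edgeR adjusted p = 3.84e-12) and 1.02 ± 0.05 in WT (adjusted p = 1.42e-11), or 2.18-fold and 2.02-fold.

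H2-D1, which encodes the other classical heavy chain measured, rose less. It had 1029, 998, 1023 and 1076 CPM in Nbeal2-/- with IL-33, against 851, 766, 780 and 759 CPM in Nbeal2-/- untreated. The WT libraries had 857, 895, 921 and 845 CPM with IL-33, against 657, 638, 738 and 623 CPM untreated. All treated libraries were above all untreated libraries of their genotype, by 0.39 ± 0.05 on the log2 scale in Nbeal2-/- (edgeR adjusted p = 1.1e-05) and 0.41 ± 0.05 in WT (adjusted p = 6.09e-06). The per-length ratio of H2-K1 to H2-D1 was therefore 0.913 ± 0.0055 in Nbeal2-/- with IL-33, against 0.547 ± 0.00829 in Nbeal2-/- untreated, and 0.826 ± 0.0235 in WT with IL-33, against 0.541 ± 0.0367 in WT untreated.

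B2m, the light chain shared by all these heavy chains, had 525, 569, 573 and 593 CPM in Nbeal2-/- with IL-33, against 453, 376, 404 and 416 CPM in Nbeal2-/- untreated. In WT it had 546, 575, 565 and 535 CPM with IL-33, against 465, 386, 415 and 387 CPM untreated. The groups did not overlap, and the untreated libraries numbered 1 were the highest untreated ones in both genotypes. The rise was 0.45 ± 0.06 in Nbeal2-/- (edgeR adjusted p = 1.22e-05) and 0.43 ± 0.06 in WT (adjusted p = 2.27e-05) on the log2 scale. Between same-numbered libraries the fold ran from 1.16 to 1.51 in Nbeal2-/- and from 1.17 to 1.49 in WT, lowest in number 1 both times.

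The promoter windows of these genes show which sequence motifs stand near the genes that moved together and the genes that did not. RefSeq windows on GRCm38.p6, from 250 bases before to 50 bases after an annotated start, were found for 8 of the 10 genes, not for Tap2 and Nlrc5. The windows of H2-D1, Tapbp, Psmb8 and Psmb9 lie wholly inside the GENCODE spans of these genes given above. Their GENCODE starts were not searched, so a motif absent from these windows may stand there. Motifs were searched on both strands: the interferon-stimulated response element core (GAAA, any 2 bases, GAAA), the GAS element (TTCNNNGAA), the NF-kB consensus, the CCAAT box (CCAAT), the cyclic AMP response element (TGACGTCA) and the GC box (GGGCGG). Matches to the first 4 are in capitals, and the GC box is left in lower case. H2-K1 (chr17:34000298-34000597, minus strand), H2-D1 (chr17:35262844-35263143, plus strand) and B2m (chr2:122147437-122147736, plus strand) are shown because they rose together, Tapbp (chr17:33919228-33919527, plus strand) because it rose most, and Psmb9 (chr17:34187281-34187580, minus strand) because it fell most among the genes with a window:
H2-K1: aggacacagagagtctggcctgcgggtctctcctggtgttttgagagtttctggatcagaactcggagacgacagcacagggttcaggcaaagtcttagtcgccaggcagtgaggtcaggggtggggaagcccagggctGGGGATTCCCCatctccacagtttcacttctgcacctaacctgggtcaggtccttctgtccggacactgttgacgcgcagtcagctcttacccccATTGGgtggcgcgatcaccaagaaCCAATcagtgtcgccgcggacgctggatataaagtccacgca
H2-D1: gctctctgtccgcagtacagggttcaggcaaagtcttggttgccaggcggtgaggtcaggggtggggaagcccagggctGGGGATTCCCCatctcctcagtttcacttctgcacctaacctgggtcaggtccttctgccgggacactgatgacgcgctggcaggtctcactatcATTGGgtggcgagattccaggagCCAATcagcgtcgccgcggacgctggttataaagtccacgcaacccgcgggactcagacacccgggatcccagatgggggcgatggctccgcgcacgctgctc
B2m: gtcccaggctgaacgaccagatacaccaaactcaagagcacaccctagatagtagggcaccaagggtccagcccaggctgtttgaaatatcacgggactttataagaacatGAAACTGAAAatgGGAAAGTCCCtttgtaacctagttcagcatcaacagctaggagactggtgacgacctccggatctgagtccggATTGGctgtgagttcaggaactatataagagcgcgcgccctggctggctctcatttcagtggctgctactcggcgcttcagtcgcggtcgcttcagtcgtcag
Tapbp: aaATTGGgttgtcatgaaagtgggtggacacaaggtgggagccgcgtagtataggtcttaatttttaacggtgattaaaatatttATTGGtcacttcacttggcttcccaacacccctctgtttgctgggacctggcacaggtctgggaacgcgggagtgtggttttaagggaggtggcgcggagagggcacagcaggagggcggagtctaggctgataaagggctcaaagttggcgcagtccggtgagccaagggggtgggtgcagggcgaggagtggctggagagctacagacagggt
Psmb9: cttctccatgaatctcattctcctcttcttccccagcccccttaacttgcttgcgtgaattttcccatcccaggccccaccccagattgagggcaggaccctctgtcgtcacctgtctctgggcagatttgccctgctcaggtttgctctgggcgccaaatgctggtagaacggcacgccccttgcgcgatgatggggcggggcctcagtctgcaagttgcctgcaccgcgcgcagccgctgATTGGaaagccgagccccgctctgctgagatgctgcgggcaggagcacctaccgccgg
The H2-K1 and H2-D1 windows matched at 211 of 239 aligned bases (88.3%), and both hold the NF-kB consensus as 2 matches that overlap by all but 1 base, followed by 2 CCAAT boxes on opposite strands. The B2m window holds an interferon-stimulated response element core, an NF-kB consensus match and a CCAAT box. Of all 32851 RefSeq windows, 4.51% hold the NF-kB consensus, 3.44% the interferon element core, 8.3% the GAS element, 37.4% a CCAAT box, 1.79% the cyclic AMP element and 35.7% a GC box. The NF-kB consensus was found in the windows of H2-K1, H2-D1 and B2m, all of which rose with IL-33, and not in those of Tapbp, which rose too, or of Tap1, Psmb8, Psmb9 and Psmb10. Tapbp holds 2 CCAAT boxes and a GC box. Psmb9 and Tap1 share 275 bases of their windows, with 1 CCAAT box and 1 GC box. Psmb8 holds a GAS element match, and Psmb10 none of the motifs. A match is a description of these letters and not evidence that a factor binds there. Only exact letters were searched, so a window without a match, such as H2-K1 or H2-D1 for the interferon element core, may hold a variant of it.

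In the loading step, Tapbp rose most of the 10 genes. It had 229, 217, 232 and 235 CPM in Nbeal2-/- with IL-33, against 80.8, 82.8, 78.6 and 78.9 CPM in Nbeal2-/- untreated. The WT values were 219, 218, 217 and 214 CPM with IL-33, against 99.7, 106, 109 and 101 CPM untreated. The groups were far apart, and the log2 fold change was 1.51 ± 0.04 in Nbeal2-/- (2.84-fold, edgeR adjusted p = 2.95e-15) and 1.07 ± 0.04 in WT (2.09-fold, adjusted p = 2.24e-13).

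Tap2, the partner of Tap1 in the peptide transporter, fell. It had 142, 136, 139 and 142 CPM in Nbeal2-/- with IL-33, against 230, 214, 215 and 208 CPM in Nbeal2-/- untreated. In WT it had 142, 127, 134 and 134 CPM with IL-33, against 301, 272, 294 and 252 CPM untreated. It fell by 0.64 ± 0.05 on the log2 scale in Nbeal2-/- (edgeR adjusted p = 1.85e-08) and by 1.06 ± 0.05 in WT (adjusted p = 2.17e-11), with no overlap between treated and untreated libraries.

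Tap1 moved little. It had 54.9, 55.5, 54.2 and 57.6 CPM in Nbeal2-/- with IL-33, against 57.1, 59.2, 59.1 and 56.9 CPM in Nbeal2-/- untreated, and these libraries overlapped. The WT libraries had 59.3, 57.3, 59.4 and 55.9 CPM with IL-33, against 66.2, 69.2, 68.9 and 65.5 CPM untreated, and these did not. The log2 fold change was -0.06 ± 0.04 in Nbeal2-/- (edgeR adjusted p = 0.167) and -0.22 ± 0.04 in WT (adjusted p = 8.14e-05). Without TMM factors Tap1 was called in Nbeal2-/- too, at -0.18 (adjusted p = 0.000954).

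Among the immunoproteasome genes Psmb9 changed most. It had 7.92, 8.42, 8.57 and 8.01 CPM in Nbeal2-/- with IL-33, against 23.5, 23.3, 25.6 and 24.6 CPM in Nbeal2-/- untreated. The WT values were 9.70, 8.54, 7.99 and 9.30 CPM with IL-33, against 38.9, 31.6, 33.6 and 32.7 CPM untreated. Every treated library lay below every untreated one, and Psmb9 fell by 1.56 ± 0.07 on the log2 scale in Nbeal2-/- (2.95-fold lower, edgeR adjusted p = 7.86e-12) and by 1.94 ± 0.07 in WT (3.84-fold lower, adjusted p = 3.56e-13). Its divergent neighbour Tap1, whose promoter window it shares in large part, had log2 fold changes of -0.06 and -0.22 in the same contrasts.

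Psmb8 fell less. It had 88.7, 91.1, 89.7 and 92.8 CPM in Nbeal2-/- with IL-33, against 118, 105, 105 and 104 CPM in Nbeal2-/- untreated. In WT it had 82.7, 87.0, 91.3 and 81.6 CPM with IL-33, against 143, 116, 124 and 107 CPM untreated. The groups did not overlap, and the fall was 0.25 on the log2 scale in Nbeal2-/- (SE 0.07, edgeR adjusted p = 0.00541) and 0.52 in WT (SE 0.07, adjusted p = 5.94e-06).

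Psmb10 had 24.5, 25.7, 24.5 and 28.0 CPM in Nbeal2-/- with IL-33, against 37.1, 28.5, 26.7 and 29.2 CPM in Nbeal2-/- untreated. The WT libraries had 19.9, 20.1, 23.5 and 20 CPM with IL-33, against 31.4, 24.9, 30.6 and 24.9 CPM untreated. The libraries overlapped in Nbeal2-/- and not in WT. The log2 fold change was -0.24 ± 0.10 in Nbeal2-/- (edgeR adjusted p = 0.053) and -0.42 ± 0.10 in WT (adjusted p = 0.00181). With the same-numbered libraries as pairs the value in Nbeal2-/- was -0.23 and was called (adjusted p = 0.0382). It stayed uncalled in 7 of 20 alternatives, with adjusted p from 0.00509 to 0.272 over all 20, and was called without Nbeal2-/- replicate 3 (0.0459) or without WT replicate 1, 2 or 3 (0.0324, 0.04 and 0.0489).

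Set against the constitutive subunit whose place each takes, all 3 inducible subunits had a lower ratio with IL-33. These within-library ratios of RPKM were chosen after the values were seen and are given without a test. Psmb9 over Psmb6 was 0.0335, 0.0349, 0.0359 and 0.0325 in Nbeal2-/- with IL-33, against 0.110, 0.139, 0.152 and 0.147 in Nbeal2-/- untreated. In WT it was 0.0451, 0.0384, 0.0319 and 0.0407 with IL-33, against 0.217, 0.237, 0.208 and 0.229 untreated. Psmb8 over Psmb5 averaged 0.338 ± 0.00364 in Nbeal2-/- with IL-33, against 0.533 ± 0.0392 in Nbeal2-/- untreated, and 0.353 ± 0.0167 in WT with IL-33, against 0.719 ± 0.0384 in WT untreated. Psmb10 over Psmb7 averaged 0.383 ± 0.0258 in Nbeal2-/- with IL-33, against 0.556 ± 0.0295 in Nbeal2-/- untreated, and 0.324 ± 0.0189 in WT with IL-33, against 0.596 ± 0.0483 in WT untreated (SD, n = 4 each). For each of the 3 pairs the treated libraries lay below the untreated ones of the same genotype, with the inducible gene lower in mean level and the constitutive one higher. The heavy chains H2-K1 and H2-D1 together over B2m averaged 1.17 ± 0.0611 in Nbeal2-/- with IL-33, against 0.988 ± 0.0448 in Nbeal2-/- untreated, and 0.964 ± 0.0134 in WT with IL-33, against 0.828 ± 0.0588 in WT untreated.

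**Figure D3:**
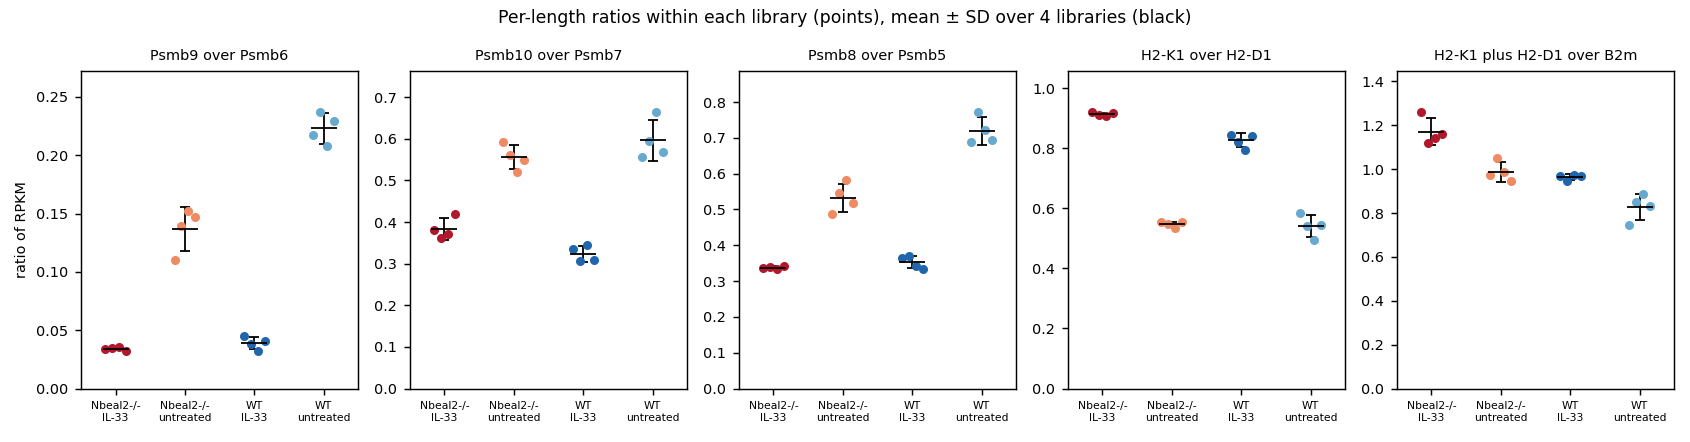
Ratios of RPKM within each library (points), with mean and SD over 4 libraries in black, for the 4 groups. The inducible over constitutive proteasome ratios lie lower with IL-33 in both genotypes, down to 0.0342 for Psmb9 over Psmb6 in Nbeal2-/-, while H2-K1 over H2-D1 lies higher.

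Nlrc5, the class I transactivator, was close to the detection limit. It had 2, 3, 0 and 1 counts in Nbeal2-/- with IL-33, against 11, 23, 8 and 13 counts in Nbeal2-/- untreated. The WT values were 6, 2, 4 and 2 counts with IL-33, against 28, 17, 30 and 22 counts untreated. The library with 0 counts allows up to 0.0824 RPM. Treated and untreated libraries did not overlap, and the log2 fold change was -2.80 ± 0.53 in Nbeal2-/- (edgeR adjusted p = 0.000207) and -2.68 ± 0.41 in WT (adjusted p = 2.41e-05). A gene that passes the filter only where it is high had to differ, so this call supports nothing further.

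Besides these genes, markers of mast cells and of other cell types differed with IL-33. Of the 8 mast cell markers, 4 rose, 2 fell and 2 were not called in Nbeal2-/-, and 3 rose, 2 fell and 3 were not called in WT. Among all genes tested, 27.2% rose and 27.9% fell in Nbeal2-/-, and 28.9% rose and 28.6% fell in WT. Their log2 fold changes ran from -1.11 to 2.03 in Nbeal2-/- and from -1.25 to 2.46 in WT, with Kit lowest. Of 3 tested markers of monocytes and macrophages, 1 fell in Nbeal2-/-, and 1 rose and 1 fell in WT. The 8 T and NK cell markers summed to between 8.41 and 10.4 CPM in Nbeal2-/- with IL-33, against 0.184 to 0.385 CPM in Nbeal2-/- untreated, and to between 8.28 and 11.4 CPM in WT with IL-33, against 0.236 to 0.319 CPM in WT untreated. Ncr1, which encodes a receptor of NK cells, made up nearly all of it at 9.46, 0.237, 9.15 and 0.172 CPM in those 4 groups, while Cd3e, Cd3g, Cd8a and Klrb1c had 0 counts. In Nbeal2-/- the 5 genes of the basophil list summed to between 883 and 920 CPM with IL-33, against 640 to 706 CPM untreated. In WT they summed to between 1046 and 1050 CPM with IL-33, against 756 to 837 CPM untreated. The list did not move as one. Of its 5 genes, 2 rose, 1 fell and 2 were not called in Nbeal2-/- (median log2 fold change -0.18), and 2 rose, 2 fell and 1 was not called in WT (median -0.05). Basp1, a gene not specific to basophils, carried most of the higher sum, with means of 537, 282, 645 and 339 CPM over those groups. The sum is therefore no measure of basophil RNA. The protease gene Mcpt8 stood at 51.9, 7.61, 97.8 and 5.49 CPM in the same groups. Cd200r3 fell in both genotypes, by 0.37 on the log2 scale in Nbeal2-/- and by 0.74 in WT, Prss34 had -0.72 in both and was called in WT, and Il3ra was not called. The 6 dendritic cell markers summed to between 0.409 and 0.744 CPM in Nbeal2-/- with IL-33, against 0.0366 to 0.193 CPM in Nbeal2-/- untreated, and to between 0.312 and 0.676 CPM in WT with IL-33, against 0.0494 to 0.124 CPM in WT untreated. B and plasma cell markers and neutrophil markers each summed to at most 2.08 CPM in any library. The part of these cells in the class I values was not tested.

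The comparison of genotypes asks how the class I genes stood without Nbeal2. The heavy chains H2-K1 and H2-D1 were higher in Nbeal2-/- than in WT in both conditions. In the untreated cells the transporter genes Tap1 and Tap2, Tapbp and the immunoproteasome genes Psmb8 and Psmb9 were lower in Nbeal2-/-, and with IL-33 none of these 5 differed by more than 0.12 on the log2 scale or was called. With IL-33, 2 of the 10 genes were called, both higher, where 11.2% of all genes tested were called, 5.49% higher and 5.69% lower. In untreated cells 2 were higher and 6 lower, where 35.9% were called, 18.4% higher and 17.5% lower. Nlrc5 is among the 6 and is counted apart from the 5 named above. It exceeded the low-count cut in 4 WT and 3 Nbeal2-/- untreated libraries, and in 0 with IL-33. Only the WT untreated group passes the filter by itself, so this Nlrc5 call supports nothing further.

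**Figure D4:**
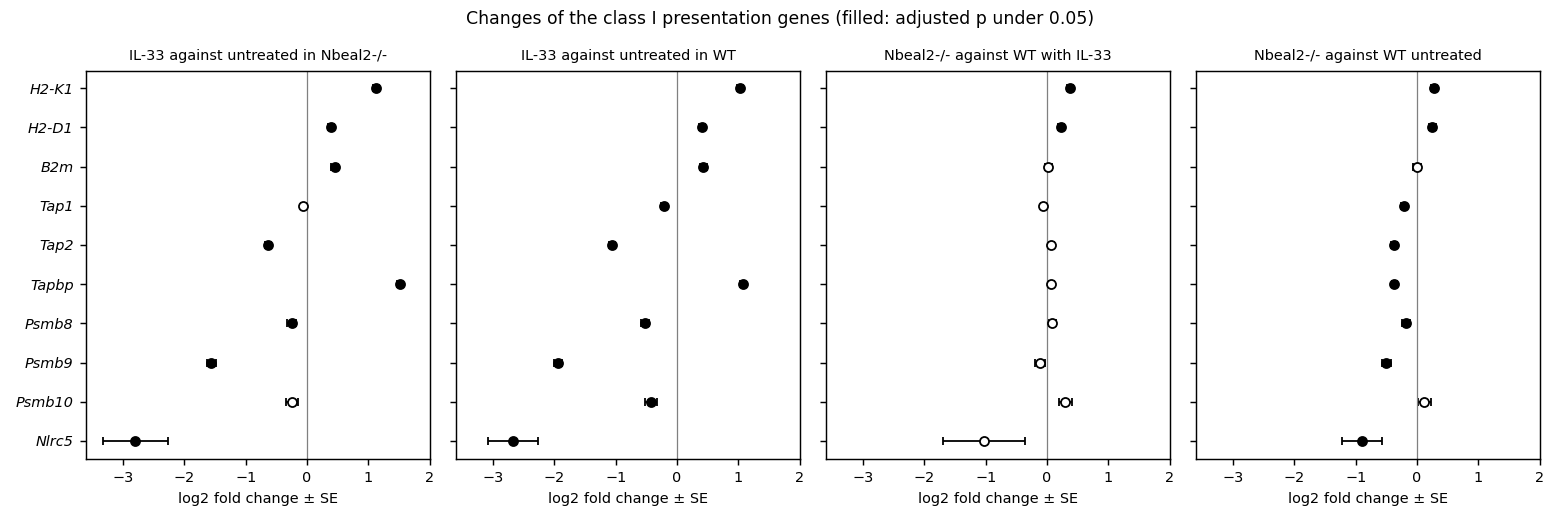
Log2 fold change with SE of each gene in the 4 pairwise comparisons, from one edgeR fit of 16 libraries; filled points were called at an adjusted p under 0.05. The 2 heavy chain genes lie right of 0 in every panel, while Tap2, Tapbp and Psmb9 lie left of 0 between the untreated genotypes and near 0 between the treated ones.

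With IL-33, H2-K1 averaged 1073 ± 37.2 CPM in Nbeal2-/- and 826 ± 11.9 CPM in WT, a log2 fold change of 0.38 ± 0.05 (edgeR adjusted p = 9.09e-05). Untreated, it averaged 491 ± 29.8 CPM in Nbeal2-/- and 408 ± 23.2 CPM in WT (0.27 ± 0.05, adjusted p = 0.000646). H2-D1 averaged 1032 ± 32.3 CPM in Nbeal2-/- and 879 ± 34.9 CPM in WT with IL-33 (0.23 ± 0.05, adjusted p = 0.0107), and 789 ± 42.3 CPM in Nbeal2-/- and 664 ± 51.1 CPM in WT untreated (0.25 ± 0.05, adjusted p = 0.0023). The libraries of the genotypes did not overlap in any of these 4 comparisons. Groups that do not overlap were found for 22.9% of all genes with IL-33 (12% higher, 10.9% lower) and for 28.2% untreated (14.3% higher, 13.9% lower). None of the 10 genes was called with a log2 change past 1 either way between the genotypes, where 1.73% of all genes were with IL-33 and 3.37% untreated. The light chain did not follow the heavy chains: B2m averaged 565 ± 28.7 CPM in Nbeal2-/- and 555 ± 18.3 CPM in WT with IL-33 (0.02 ± 0.06, adjusted p = 0.87), and 412 ± 31.8 CPM in Nbeal2-/- and 413 ± 37.2 CPM in WT untreated (-0.0026 ± 0.06, adjusted p = 0.981).

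Among markers of monocytes and macrophages Adgre1 was the 1 gene called higher in Nbeal2-/-, of 3 tested. The 7 markers summed to between 17.6 and 23 CPM in Nbeal2-/- with IL-33, against 10.5 to 13.1 CPM in WT with IL-33, and to between 19.4 and 31.6 CPM in Nbeal2-/- untreated, against 8.57 to 11.9 CPM in WT untreated. Adgre1, which encodes the macrophage antigen F4/80, averaged 20.8 CPM in Nbeal2-/- and 11.7 CPM in WT with IL-33, and 25.2 CPM in Nbeal2-/- and 8.42 CPM in WT untreated, and made up most of each sum. Ly6c2 was lower in Nbeal2-/- untreated, at 0.419 CPM in Nbeal2-/- and 1.27 CPM in WT (log2 fold change -1.63, edgeR adjusted p = 0.0176), and with IL-33 averaged 0.0937 CPM in Nbeal2-/- and 0.315 CPM in WT without a call. Csf1r averaged 0.0779 CPM in Nbeal2-/- and 0.154 CPM in WT with IL-33, and 0.102 CPM in Nbeal2-/- and 0.284 CPM in WT untreated, without a call. Of the 7 markers, 6 were under 1 CPM in mean in each group but WT untreated, where 5 were, and 2 had no count in each Nbeal2-/- group. Of the 8 mast cell markers, 3 were lower in Nbeal2-/- and 5 not called with IL-33, and 5 were lower and 3 not called untreated. Among all genes tested, 5.49% were higher and 5.69% lower in Nbeal2-/- with IL-33, and 18.4% higher and 17.5% lower untreated. Tpsb2, a tryptase gene, made up most of the gap in their sum, at 11080 CPM in Nbeal2-/- and 18622 CPM in WT with IL-33, and 3135 CPM in Nbeal2-/- and 9758 CPM in WT untreated. Kit was lower in mean in both conditions, at 1143 CPM in Nbeal2-/- and 1625 CPM in WT with IL-33. Untreated, Kit averaged 2470 CPM in Nbeal2-/- and 3854 CPM in WT. Cpa3, at 15384 CPM in Nbeal2-/- and 15502 CPM in WT with IL-33, was not called there, nor was Fcer1a in either condition. Untreated, Cpa3 averaged 19455 CPM in Nbeal2-/- and 21569 CPM in WT. The part of these cells in the genotype differences was not tested.

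Of the genes that were lower in untreated Nbeal2-/-, Psmb9 differed most apart from Nlrc5. It averaged 24.2 ± 1.05 CPM in Nbeal2-/- and 34.2 ± 3.25 CPM in WT (-0.50 ± 0.07, edgeR adjusted p = 4.74e-05). Tapbp averaged 80.3 ± 1.91 CPM in Nbeal2-/- and 104 ± 4.34 CPM in WT (-0.37 ± 0.04, adjusted p = 3.12e-06). Tap2 averaged 217 ± 9.55 CPM in Nbeal2-/- and 280 ± 22.3 CPM in WT (-0.37 ± 0.05, adjusted p = 7.89e-05). The libraries of these 3 genes did not overlap between the genotypes. Tap1 averaged 58.1 ± 1.24 CPM in Nbeal2-/- and 67.4 ± 1.87 CPM in WT (-0.22 ± 0.04, adjusted p = 0.000375), again without overlap. Psmb8, at 108 ± 6.65 CPM in Nbeal2-/- and 123 ± 15.3 CPM in WT, overlapped and was called by a narrow margin (-0.18 ± 0.07, adjusted p = 0.0479), and the call was kept in 8 of 19 alternatives. It was lost without Nbeal2-/- replicate 2, 3 or 4 or WT replicate 1, 2 or 3, with adjusted p from 0.0557 to 0.156. Nlrc5, with 55 counts over the Nbeal2-/- and 97 over the WT libraries, overlapped between the genotypes (-0.90 ± 0.33, adjusted p = 0.0399). Its call was kept in 8 of 18 alternatives. That call was lost without Nbeal2-/- replicate 1, 3 or 4 or WT replicate 1, 2 or 3, with adjusted p from 0.055 to 0.141. Psmb10 was not called, at 30.4 ± 4.61 CPM in Nbeal2-/- and 28.0 ± 3.54 CPM in WT untreated (0.12 ± 0.10, adjusted p = 0.375).

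With IL-33 the same genes stood close together. Tapbp averaged 228 ± 7.58 CPM in Nbeal2-/- and 217 ± 2.08 CPM in WT (0.07 ± 0.04, edgeR adjusted p = 0.263). Tap2 averaged 140 ± 2.95 CPM in Nbeal2-/- and 134 ± 6.15 CPM in WT (0.06 ± 0.05, adjusted p = 0.573). Psmb9 averaged 8.23 ± 0.314 CPM in Nbeal2-/- and 8.88 ± 0.764 CPM in WT (-0.12 ± 0.08, adjusted p = 0.381). All 3 overlapped between the genotypes. Psmb10 averaged 25.7 ± 1.67 CPM in Nbeal2-/- and 20.9 ± 1.75 CPM in WT and did not overlap, but missed the threshold (0.30 ± 0.10, adjusted p = 0.0691), and stayed uncalled in 14 of 19 alternatives. It was called without Nbeal2-/- replicate 1 (adjusted p = 0.0266) or without WT replicate 3 (0.0414).

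An interaction term tested whether the change with IL-33 differed by genotype. Of the 10 genes 3 were called, all with a higher value in Nbeal2-/-, where 4.56% of all genes tested were called, 2.01% higher and 2.55% lower, and 0.375% were with a size over 1. Tapbp, which rose in both, rose 0.44 ± 0.05 more on the log2 scale in Nbeal2-/- (edgeR adjusted p = 0.00038): the fold between same-numbered libraries ran from 2.63 to 2.97 in Nbeal2-/- and from 1.99 to 2.2 in WT. Tap2, which fell in both, fell less in Nbeal2-/-, by a difference of 0.42 ± 0.08 (adjusted p = 0.00411), with folds of 0.617 to 0.681 in Nbeal2-/- and 0.456 to 0.534 in WT. Psmb9 also fell less in Nbeal2-/- (0.38 ± 0.10, adjusted p = 0.0406), with folds of 0.325 to 0.361 in Nbeal2-/- and 0.238 to 0.285 in WT. The Psmb9 call was lost on leaving out Nbeal2-/- replicate 1, 2, 3 or 4 or WT replicate 2, 3 or 4, with adjusted p from 0.0699 to 0.117, and without TMM, without a filter and in limma on log2(RPM + 0.1), with adjusted p of 0.0645, 0.0768 and 0.0542, so that it was kept in 9 of 19 alternatives. For Tap1 (0.15 ± 0.05, adjusted p = 0.113) and Psmb8 (0.26 ± 0.10, adjusted p = 0.145) the difference was not called, nor for H2-K1 (0.11 ± 0.07, adjusted p = 0.417), B2m (0.03 ± 0.09, adjusted p = 0.908) or H2-D1 (-0.02 ± 0.08, adjusted p = 0.933). These values share the 4 groups with the comparisons above, so they restate them as a difference.

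The rest of the presentation machinery was followed in related gene lists. The median log2 fold change of all genes tested was -0.01 in Nbeal2-/- and 0.0029 in WT. With IL-33, 55.1% of all genes tested were called in Nbeal2-/- (27.2% higher, 27.9% lower) and 57.6% in WT (28.9% higher, 28.6% lower). The constitutive catalytic subunits Psmb5, Psmb6 and Psmb7 all rose with IL-33, by 0.39 ± 0.09, 0.42 ± 0.09 and 0.30 ± 0.08 on the log2 scale in Nbeal2-/- and by 0.51 ± 0.09, 0.57 ± 0.09 and 0.45 ± 0.08 in WT. Of 12 other genes of the 20S core and its assembly, 10 rose and 2 were not called in Nbeal2-/- (median 0.32), and 12 rose in WT (median 0.47). Psma2, an alpha ring subunit, rose by 0.57 ± 0.08 in Nbeal2-/- and 0.67 ± 0.08 in WT. In the untreated groups the library numbered 1 was the highest of its group for all 12 of these genes and all 3 constitutive catalytic genes in both genotypes, against 25.2% of all genes tested. Without the libraries numbered 1, all 12 of the other core genes were called higher with IL-33 in each genotype. Between untreated genotypes 6 of those 12 were higher in Nbeal2-/-, where 18.4% of all genes tested were. That number was 3 without WT replicate 2 and 12 without WT replicate 1 or without replicate 1 of both genotypes.

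All 5 genes of proteasome activators and the inhibitor rose in Nbeal2-/- and 4 in WT, where 27.2% and 28.9% of all genes tested rose. Psme2, an interferon-inducible activator subunit, rose most, to 232, 254, 240 and 239 CPM in Nbeal2-/- with IL-33, against 107, 85.0, 85.1 and 91.6 CPM in Nbeal2-/- untreated, and to 200, 249, 248 and 213 CPM in WT with IL-33, against 98.9, 76.0, 91.1 and 76.3 CPM in WT untreated. The groups did not overlap (log2 fold change 1.39 ± 0.10 in Nbeal2-/- and 1.41 ± 0.10 in WT, edgeR adjusted p = 1.27e-09 and 9.97e-10). Psmf1, the proteasome inhibitor, rose by 0.11 ± 0.04 in Nbeal2-/- (adjusted p = 0.0259) and stood at 0.09 ± 0.04 in WT (adjusted p = 0.0574).

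Of 7 other genes of class I folding and loading, 6 rose and 1 fell in Nbeal2-/- (median 0.51). In WT 5 rose and 1 fell (median 0.54). Among all genes tested, 27.2% rose and 27.9% fell in Nbeal2-/-, and 28.9% rose and 28.6% fell in WT. Calr, the chaperone calreticulin of the peptide-loading complex, rose to 3504 ± 109 CPM in Nbeal2-/- with IL-33, against 1448 ± 86.3 CPM in Nbeal2-/- untreated, and to 3202 ± 93.9 CPM in WT with IL-33, against 1087 ± 60.3 CPM in WT untreated. Its response was smaller in Nbeal2-/- (1.27 ± 0.05) than in WT (1.56 ± 0.05), with a difference of -0.28 ± 0.07 (edgeR adjusted p = 0.0275). Pdia3, the thiol oxidoreductase of the same complex, rose by 0.69 ± 0.05 in Nbeal2-/- and 0.80 ± 0.05 in WT. Erap1, the aminopeptidase that trims peptides in the endoplasmic reticulum, fell by 0.32 ± 0.06 in Nbeal2-/- and by 0.54 ± 0.06 in WT. Tapbpl, a tapasin-related peptide editor named after its values were seen, rose to 9.52 ± 0.666 CPM in Nbeal2-/- with IL-33, against 7.66 ± 0.280 CPM in Nbeal2-/- untreated (0.31 ± 0.07, adjusted p = 0.00154). In WT it stood at 6.85 ± 0.304 CPM with IL-33 and 7.66 ± 0.710 CPM untreated (-0.16 ± 0.07, adjusted p = 0.0762), and the difference of responses was 0.47 ± 0.10 (adjusted p = 0.0147). A difference of responses was called for 2 genes of this list, Calr and Tapbpl, and for 4.56% of all genes tested. The 2 fell to 0 without Nbeal2-/- replicate 3 or without WT replicate 4. They fell to 1 without Nbeal2-/- replicate 2 or 4 or WT replicate 2 or 3.

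**Figure D5:**
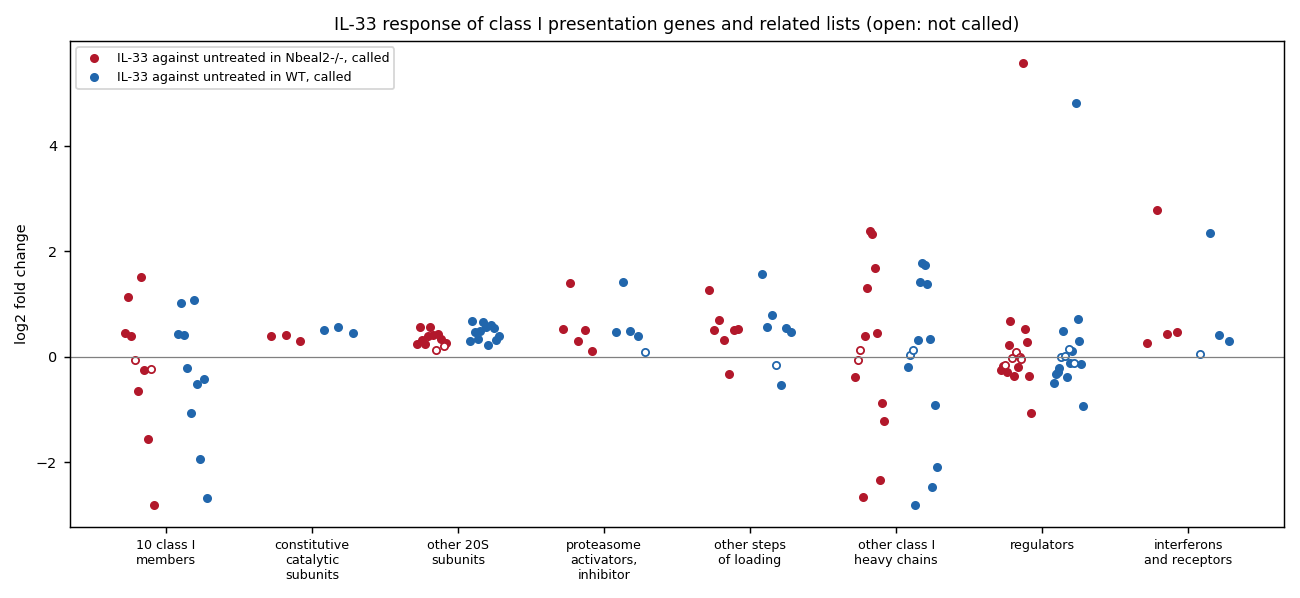
Log2 fold change with IL-33 of every tested gene of the 10 class I presentation genes and of 7 related lists, in Nbeal2-/- (red, left) and in WT (blue, right); open points were not called. The proteasome core and activator genes lie at or above 0.09, while the class I heavy chains and the regulators spread to both sides of 0.

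Of 21 other class I heavy chain genes 13 passed the filter, and in each genotype 6 rose, 5 fell and 2 were not called. Among all genes tested, 27.2% rose and 27.9% fell in Nbeal2-/-, and 28.9% rose and 28.6% fell in WT. H2-Q6 and H2-Q7, which encode Qa-2 type heavy chains, rose most. H2-Q7 had 62.1, 62.9, 64.7 and 71.5 CPM in Nbeal2-/- with IL-33, against 14.7, 12.2, 11.3 and 13.9 CPM in Nbeal2-/- untreated, and 33.3, 33.8, 33.3 and 28.1 CPM in WT with IL-33, against 11.9, 8.36, 9.84 and 8.53 CPM in WT untreated. H2-Q6 rose by 2.39 ± 0.10 in Nbeal2-/- and 1.78 ± 0.10 in WT, and H2-Q7 by 2.33 ± 0.10 and 1.73 ± 0.11. Both differed between the genotypes in response, by 0.60 ± 0.14 (edgeR adjusted p = 0.0172 for H2-Q6 and 0.0248 for H2-Q7). Neither of these differences was called without Nbeal2-/- replicate 2, 3 or 4 or without WT replicate 3, and 1 was without WT replicate 2. Of their 50-base stretches, 32.0% (H2-Q6) and 26.4% (H2-Q7) also occur in transcripts of other genes, so the 2 cannot be counted as separate results. H2-T24 fell, with log2 fold changes of -2.65 ± 0.15 in Nbeal2-/- and -2.80 ± 0.15 in WT, as did Cd1d1, which encodes a lipid-presenting molecule, with -2.33 ± 0.17 and -2.47 ± 0.19, and their untreated group means were at most 6.6 CPM.

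Of 17 tested regulators of class I genes, 5 rose, 7 fell and 5 were not called in Nbeal2-/-. In WT 5 rose, 8 fell and 4 were not called. Among all genes tested, 27.2% rose and 27.9% fell in Nbeal2-/-, and 28.9% rose and 28.6% fell in WT. Ciita, the transactivator of MHC class II genes, rose to 28.8, 24, 22.4 and 20.5 CPM in Nbeal2-/- with IL-33, against 0.674, 0.604, 0.326 and 0.385 CPM in Nbeal2-/- untreated. In WT it rose to 16, 20.8, 28 and 16.3 CPM with IL-33, against 0.887, 0.792, 0.741 and 0.472 CPM untreated (log2 fold change 5.57 ± 0.24 in Nbeal2-/- and 4.81 ± 0.23 in WT). Rfx5, which encodes a DNA-binding subunit at class I and class II promoters, rose by 0.68 ± 0.10 in Nbeal2-/- and 0.49 ± 0.09 in WT, and Nfkb1, which encodes an NF-kB subunit, by 0.53 ± 0.05 and 0.71 ± 0.05. Socs1, a feedback inhibitor of interferon signalling, fell by 1.06 ± 0.08 in Nbeal2-/- and by 0.94 ± 0.08 in WT. Of 8 genes of interferons and their receptors, Ifng, Ifnb1, Ifnl2 and Ifnl3 had 0 counts in all 16 libraries, which allows up to 0.0824 RPM in the smallest library. Ifngr2, a chain of the interferon gamma receptor, stood at 3.08 ± 0.359 CPM in Nbeal2-/- with IL-33, against 0.441 ± 0.162 CPM in Nbeal2-/- untreated, and at 3.14 ± 0.360 CPM in WT with IL-33, against 0.610 ± 0.165 CPM in WT untreated (2.79 ± 0.22 in Nbeal2-/- and 2.35 ± 0.21 in WT).

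For the genes whose log2 fold change passed 1 in size in a pairwise comparison, the genes with the most similar pattern over the 4 group means were sought among 10712 genes, by the root mean square difference of centred log2 CPM. H2-K1 was nearest to Ssr2 (0.038), Il6 (0.0481) and Mtmr14 (0.0508). Tapbp was nearest to Dubr (0.0219), Slc6a8 (0.0254) and Ankrd35 (0.0329). Tap2 was nearest to Stat3 (0.0107), Psd3 (0.018) and Itm2b (0.0187). Psmb9 was nearest to Enc1 (0.0791), Entpd3 (0.0805) and Ubash3a (0.0838), and Nlrc5 to Ffar2 (0.0754), S100a6 (0.0909) and Hrh4 (0.108). The Nlrc5 pattern rests on 6 to 97 counts a group, and a prior count of 2 entered the log2 CPM. The genes searched had a mean of at least 5 CPM in their highest group, so the genes nearest to Nlrc5 support nothing further. None of the nearest genes was another of the 10.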

How the data were processed

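Qiazol RNA and a directional poly(A) kit were used, per the labels' protocols. Per the submitters' processing notes, bcl2fastq 2.20.0.422 and featureCounts 1.6.5 were used on GRCm38; an aligner, an annotation release and a strand setting are not given there. The authors deposited raw counts per gene for 16 libraries, the same as RPM (counts scaled to each column total, checked to 4.91e-11) and as RPKM, which adds a fixed length per gene. The count table has 0 blank gene names. Counts were tested in R 4.3.3 with edgeR 4.0.16: filterByExpr over the 4 groups (15470 genes), TMM factors of 0.951 to 1.06, 4 group means, robust quasi-likelihood F tests, Benjamini-Hochberg adjustment over all genes tested; the common biological coefficient of variation was 9.56%. An SE is the log2 fold change divided by the root of F. All 16 libraries entered each fit. The smallest library total gives 36.4 counts at 1 CPM, and a count of 0 allows 3 counts, which covers counting error only. Libraries of a group differed beyond sampling noise (chi-square per degree of freedom at least 5.34). The test was checked on simulated counts.

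Same-numbered libraries of a genotype deviated together, with correlations of 0.171 to 0.369 in all 8 pairs, so IL-33 contrasts can be paired. Across genotypes the libraries numbered 1 also deviated together, with 0.506 untreated and 0.238 with IL-33. The other numbers ran from -0.0393 to 0.163 across genotypes. Alternatives were other scalings and filters, DESeq2 1.42.0, limma 3.58.1 on log2(RPM + 1) and log2(RPM + 0.1), only the 2 groups compared, replicate blocks and leaving out replicates. The genes, lists, motifs and tests were chosen with earlier results of these data known. Named genes are the 10, Nbeal2, pathway lists of at most 6 tested genes, the 4 called genes of longer pathway lists with the largest changes, and, by pattern, the 3 genes nearest to each of the 10 whose change passed 1 on the log2 scale; Tapbpl and the single genes named from the cell type marker lists were named after their values were seen. Positions and overlaps come from GENCODE M21 on GRCm38, which held 55141 of the gene identifiers, and promoter windows from RefSeq GRCm38.p6. Motif matches and shared 50-base stretches were counted by exact letters.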

Additional observations from a re-analysis of the deposited data

Results flagged for a closer look

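The IL-33 response differed between the genotypes for 3 of the 10 genes by the interaction test of edgeR: the log2 difference, Nbeal2-/- minus WT, was 0.42 for Tap2, 0.44 for Tapbp and 0.38 for Psmb9. The Tap2 and Tapbp calls were kept in all 19 alternatives run and the Psmb9 call in 9 of 19 (adjusted p up to 0.117). In all 3 the untreated libraries differed between the genotypes and the treated ones were not called.

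In 3 of 60 groups of 4 libraries, 1 library stood far from the other 3, and chance alone flags about 1 in 20. H2-K1 had 536 CPM in untreated Nbeal2-/- replicate 1, against 476 to 478 CPM in the others. Psmb8 had 118 CPM in the same library, against 104 to 105 CPM. Psmb10 had 23.5 CPM in WT with IL-33 replicate 3, against 19.9 to 20.1 CPM.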

How the results depend on the processing

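The number of the 10 genes called stayed within 1.5 times that of the main fit in every alternative run: 8 to 10 for IL-33 in Nbeal2-/- (main fit 8), 9 to 10 for IL-33 in WT (10), 2 to 3 for Nbeal2-/- against WT with IL-33 (2), 6 to 8 untreated (8) and 2 to 4 for the difference of responses (3). All counts of the 10 genes in this paragraph include Nlrc5, which the Results count apart for IL-33 and between the untreated genotypes. It passed the filter only through its untreated libraries, so its IL-33 calls say nothing about stability. With the same-numbered libraries as a replicate block 9 and 10 genes were called for IL-33 in Nbeal2-/- and WT, the gain being Psmb10, and the block changed no other call for the 10 genes. The replicate number as a block across genotypes left these counts at 8, 10, 2, 8 and 3. Of the values gene by gene, 890 kept direction and call, 31 lost the call, 23 gained it and 19 changed sign, all of B2m, H2-D1 or Nlrc5: B2m in untreated Nbeal2-/- against WT was 0.01 without TMM, without a filter and in both limma fits, and ran from -0.05 to 0.05 over left-out replicates; the difference of responses of Nlrc5 was 0.2 and 0.36 in the limma fits. Over left-out replicates that difference ran from -0.38 to 0.14 for Nlrc5, from -0.04 to 0.11 for B2m and from -0.06 to 0.02 for H2-D1. The cause was not tested. Without TMM the median of all genes moved to -0.13 for IL-33 in Nbeal2-/- (reported -0.01), and 33.5% of calls were higher (reported 49.4%), 38% in WT (50.3%) and 33% in the difference of responses (44.1%); limma gave 33.8%, 38.1% and 38.8%. Depth limits Nlrc5, which rests on 6 to 97 counts a group and which a filter of 1 CPM in 4 libraries left without a value. The sign of each log2 difference of RPKM ratios was the same with each replicate left out, an alternative added after the data were seen, except for H2-K1 over H2-D1 between untreated genotypes (-0.03 to 0.06).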

Other observations

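The untreated libraries numbered 1 carried more proteasome RNA than the other untreated libraries. Psmb5 had 64.1 CPM in Nbeal2-/- replicate 1 and 48.1 to 53.4 CPM in the others, and 55.3 CPM in WT replicate 1 and 39.9 to 45.6 CPM in the others. The same library was the highest of its group in both untreated groups for 12 of 12 other core genes and 3 of 3 constitutive catalytic genes, but for 3 of 17 regulators of class I genes and 3 of 13 other class I heavy chains, against 25.2% of all genes tested. With IL-33 it was the highest for 0 of those 12 core genes in either genotype.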
